A study of Mus musculus with 32 samples.

Results

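Endothelial cells line blood and lymphatic vessels, and 35 genes known as their markers were followed in whole femur marrow of mice while the adiponectin-expressing lineage was being removed. The genes were chosen by name, with earlier results of these data known, and all 35 were found among the 41388 genes of the count tables. They comprise 26 pan-endothelial genes (Cdh5, Pecam1, Kdr, Flt1, Tek, Tie1, Eng, Vwf, Esam, Cldn5, Sox7, Sox17, Sox18, Erg, Ecscr, Robo4, Mmrn2, Egfl7, Clec14a, Aplnr, Ptprb, Nos3, Icam2, S1pr1, Cd93 and Rasip1), 6 sinusoidal and lymphatic-type genes (Emcn, Flt4, Stab1, Stab2, Lyve1 and Plvap) and 3 tip cell genes (Esm1, Angpt2 and Apln). Of these, 32 passed the filter on low counts and were tested, while Sox7, Sox17 and Nos3 did not pass. Apln passed it only with the DTRADQ libraries counted.

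DTRADQ mice came from a cross of mice carrying an inducible diphtheria toxin receptor (genotype "DTR flox") with adiponectin-Cre mice, so the receptor is made where the adiponectin promoter has driven Cre. Cre-negative littermates, which carry the DTR flox allele too, served as controls, and all mice were on the C57BL/6 background and 2 months old. Each genotype was sampled without diphtheria toxin (DT) and after 1, 2 or 3 days of daily intraperitoneal injection of 100 ng DT per mouse, controls included. There were 4 mice in each of the 8 groups, giving 32 RNA sequencing libraries.

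Endothelial cells respond to vascular endothelial growth factors through the receptors encoded by Kdr, Flt1 and Flt4, and to angiopoietins through the receptor encoded by Tek. Marrow is drained by sinusoids, wide thin-walled vessels whose endothelium takes up debris through the scavenger receptors Stab1 and Stab2, and it is fed by arterioles and capillaries. At the front of a growing sprout, tip cells make Esm1, Angpt2 and Apln, while blood cells share part of the endothelial programme. Of the 35 genes 13 were listed by name as also expressed in platelets, macrophages, lymphocytes or blood progenitors (Pecam1, Vwf, Tek, Eng, Erg, Esam, Egfl7, Icam2, S1pr1, Cd93, Robo4, Stab1 and Lyve1). That list may be incomplete, and a gene left off it is not thereby absent from blood cells.

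Library totals ran from 8.97 to 22.93 M counts (median 14.17 M). Adipoq, the transcript that checks the targeted lineage, was at 0.264 to 0.600 CPM (counts per M library counts, scaled by TMM as are all levels below) in DTRADQ at day 3 and at 32.1 to 54.3 CPM in controls. Without DT it was already lower in DTRADQ (log2 change −1.24, adjusted p = 5.5e-04 by edgeR's quasi-likelihood test). Among controls without DT, the 10 most abundant genes took 37.4% of the counts in replicate 3 and 50.7% in replicate 4, against 22.7% and 28.6% in the other two, so comparisons that use this group are also given without replicates 3 and 4. In DTRADQ at day 2, replicate 1 had the lowest level of its group for 27 of the 32 tested members. The lane field of the labels differs between day 3 and the other days, so DT effects within a genotype at day 3 cannot be told apart from it, whereas genotypes compared on the same day share it.

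Levels between genes were compared per kilobase of exon over the 16 control libraries. Icam2, an adhesion receptor for leukocyte integrins, had the highest median at 19.2 CPM per kb (5.09 to 26.8), followed by Cd93 at 11.4, Esm1, listed as a tip cell gene, at 11.0 (6.22 to 14.3), Pecam1 at 9.59 and Esam at 6.58. The ranges of these 5 neighbours overlapped. The junction cadherin Cdh5 was at 1.92 CPM per kb, the sinusoidal genes lay between 0.626 (Flt4) and 2.15 (Stab2), and the other two genes listed as tip cell genes were at 0.652 (Angpt2) and 0.0819 (Apln). All defining endothelial markers that were tested, Cdh5, Pecam1, Kdr, Tek and Tie1 among them, were detected in each of the 32 libraries.

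**Figure D1:**
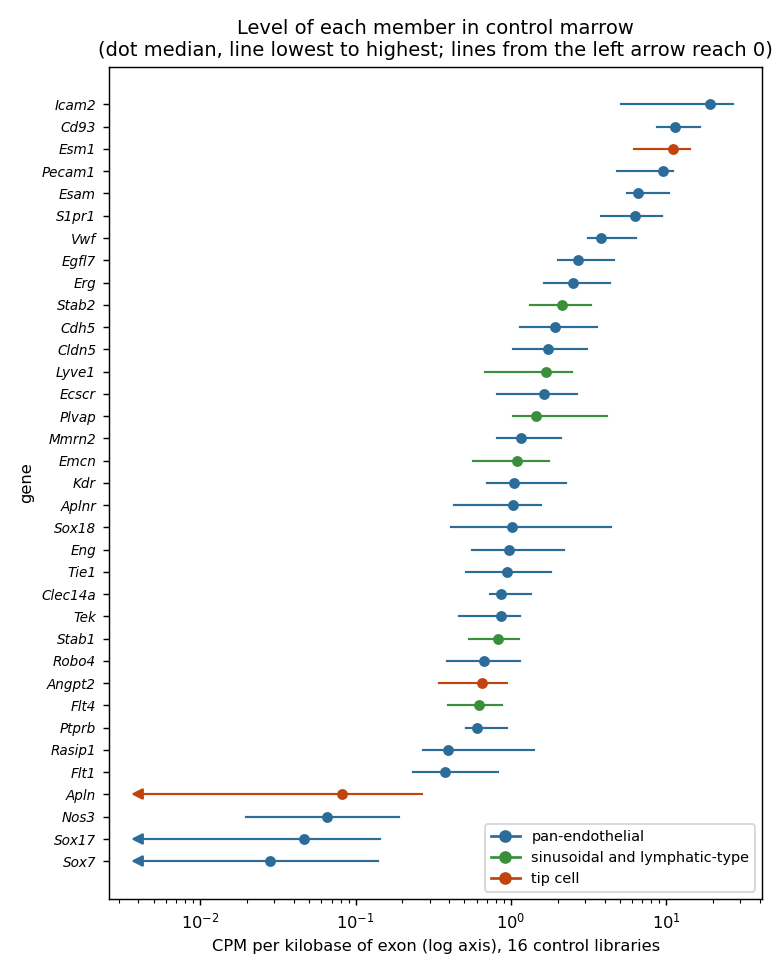
Level of the 35 genes in the 16 control libraries, in CPM per kilobase of exon on a log axis; dots are medians, lines run from the lowest to the highest library, and a left arrow marks a line that reaches 0. Icam2, Cd93 and Esm1 lead, with medians of 19.2, 11.4 and 11.0 CPM per kb, and Apln, Nos3, Sox17 and Sox7 are lowest.

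Whether vessel genes change when the lineage is lost was asked by comparing DTRADQ with controls on the same day, and more members passed at day 3 than on the other days. Of the 32 tested members 15 rose and 1 fell, where 8.8% of all 14527 genes tested rose and 14.1% fell. In this comparison, rose and fell mean higher and lower than in controls of the same day, and not a change over time. The median log2 change of the members was 0.39, and that of all genes tested was −0.02. As the members were chosen with earlier results of these data known, these shares describe the list and do not test it. By vessel type, 11 of 23 pan-endothelial genes rose and 0 fell, 2 of 6 sinusoidal genes rose and 0 fell, and of the 3 tip cell genes 2 rose and 1 fell. The groups did not overlap for 14 members on the higher side and 1 on the lower, where 14.9% and 20.4% of all genes did not. In bulk marrow a change in the number of endothelial cells and a change in RNA per cell cannot be told apart. Summed over the 35 genes, the level was 500.1 to 653.9 CPM in DTRADQ and 363.0 to 441.2 CPM in controls. Most of this sum came from the 13 members listed as also expressed in blood cells, at 398.2 to 485.4 against 268.1 to 318.5 CPM. The sums of the other 22 members overlapped, at 101.9 to 168.5 CPM in DTRADQ and 94.2 to 122.7 CPM in controls.

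**Figure D2:**
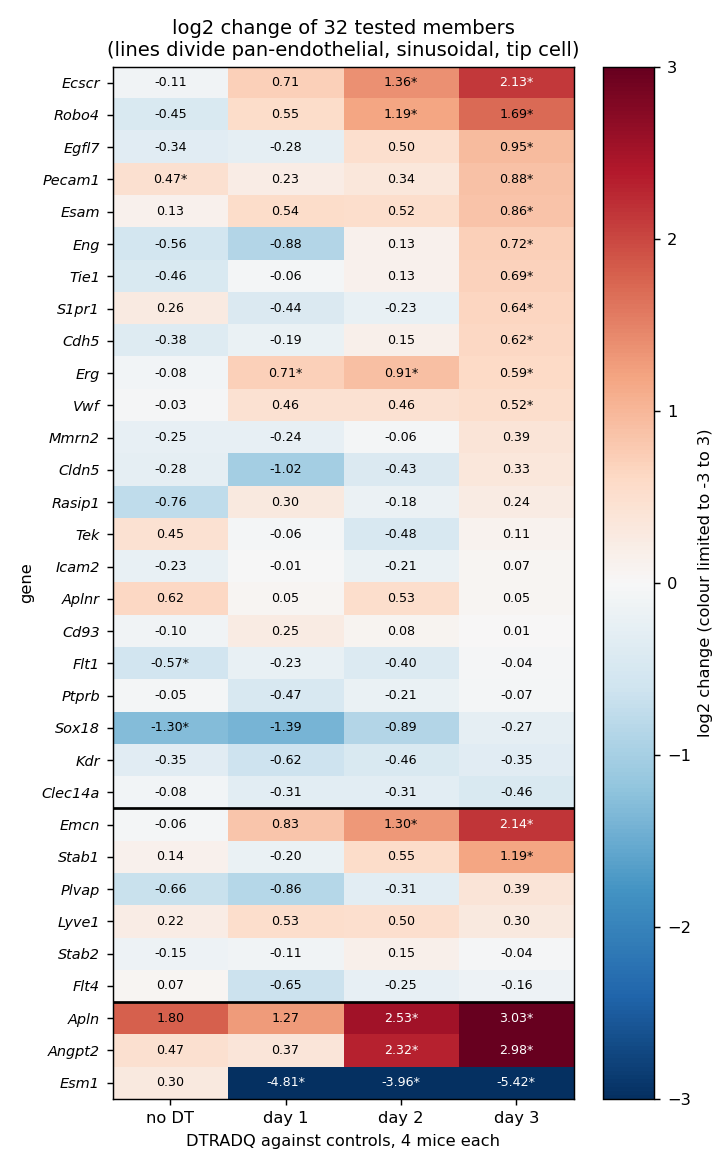
Log2 change of the 32 tested members, DTRADQ against controls, on each day, from edgeR; an asterisk marks an adjusted p under 0.05. Few members are marked without DT or at day 1, whereas 7 are marked at day 2 and 16 at day 3, with Esm1 the lone member marked lower from day 1 to day 3.

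Emcn (ENSMUSG00000054690, chromosome 3, 137341067 to 137432185 in GRCm38, as are all positions given) encodes endomucin, a sialomucin at the surface of sinusoidal and venous endothelium. At day 3 it was at 23.0, 22.2, 16.9 and 30.7 CPM in the 4 DTRADQ libraries and at 3.07, 5.47, 5.06 and 7.36 CPM in the 4 control libraries. Every DTRADQ library was above every control library, and the level was 4.42-fold higher (log2 change 2.14, SE 0.25, adjusted p = 1.9e-07). At day 2 it was at 7.95, 18.4, 17.2 and 23.8 CPM in DTRADQ and at 7.42, 5.50, 6.65 and 7.61 CPM in controls. The groups again did not overlap, although replicate 1 of DTRADQ was close to the highest control (log2 change 1.30, SE 0.25, adjusted p = 0.0011). Without DT the groups overlapped, at 6.29 to 9.56 CPM in DTRADQ and 5.73 to 9.44 CPM in controls.

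A pair of pan-endothelial membrane proteins rose as well. Ecscr encodes an endothelial surface protein with a role in chemotaxis, and at day 3 it was at 9.21, 9.47, 8.26 and 13.1 CPM in DTRADQ and at 1.75, 2.28, 2.80 and 2.33 CPM in controls. These groups were far apart, a 4.37-fold difference (log2 change 2.13, SE 0.24, adjusted p = 1.6e-07). Robo4 (ENSMUSG00000032125, chromosome 9, 37401897 to 37414023) encodes the endothelial roundabout receptor, which holds the vessel barrier. It was at 7.47, 10.1, 9.06 and 9.81 CPM in DTRADQ and at 2.604, 3.00, 2.21 and 3.48 CPM in controls, a 3.22-fold difference with no overlap (log2 change 1.69, SE 0.24, adjusted p = 4.6e-06). At day 2 both had risen, Ecscr by 1.36 on the log2 scale (adjusted p = 7.4e-04) and Robo4 by 1.19 (adjusted p = 0.0031).

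**Figure D3:**
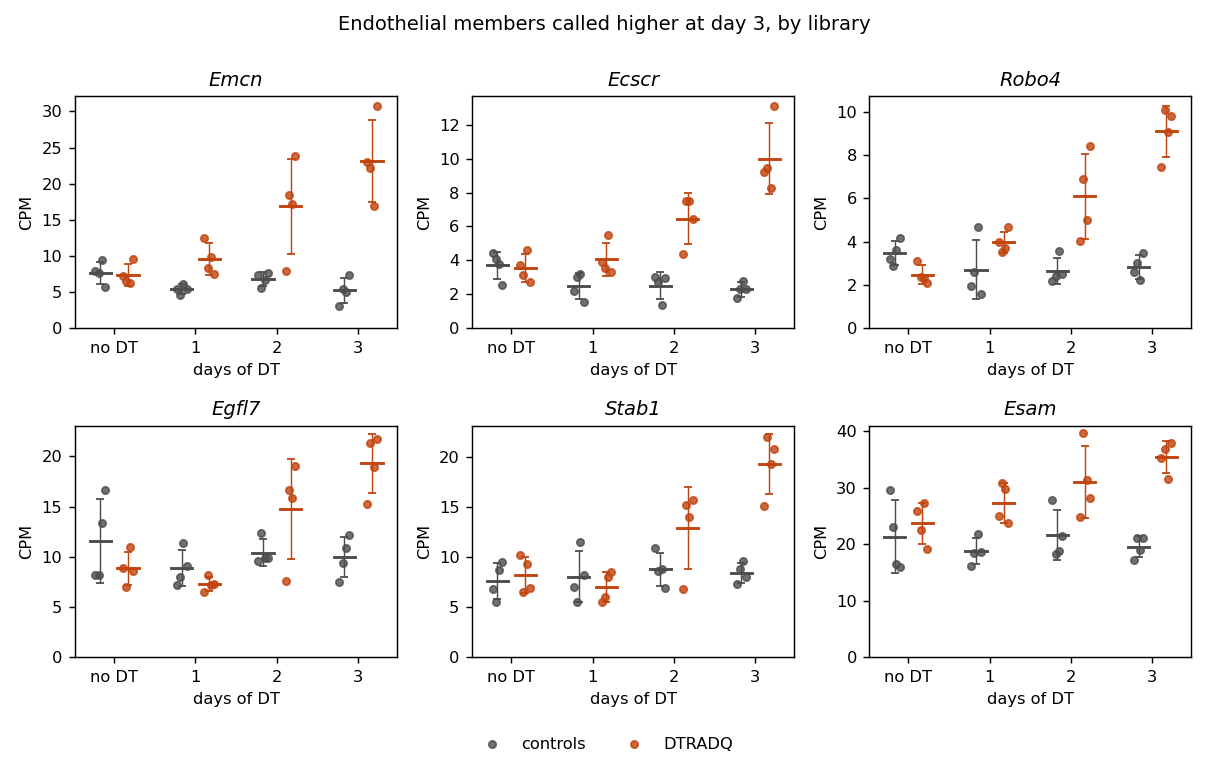
CPM of Emcn, Ecscr, Robo4, Egfl7, Stab1 and Esam in each of the 32 libraries by days of DT (grey, controls; orange, DTRADQ; bars, mean and SD of 4 mice). At day 3 all DTRADQ points are above all control points in each panel, Emcn for example at 16.9 to 30.7 against 3.07 to 7.36 CPM.

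The promoters of Emcn and Robo4, which rose together, and of Esm1, which fell, are shown so that their sequences can be set side by side. Each is the 250 bases before the start in the RefSeq table (GRCm38.p6), read 5′ to 3′ along the gene: chr3:137340828-137341077 (+) for Emcn, chr9:37401722-37401971 (+) for Robo4 and chr13:113209409-113209658 (+) for Esm1. The RefSeq starts of Emcn and Robo4 lie inside the gene bounds given above, so the last bases of both windows do too. Capitals mark the letters searched on both strands for 2 factor families active in endothelium, ETS (AGGAAG or CGGAAG) and SOX (ACAAT).
Emcn: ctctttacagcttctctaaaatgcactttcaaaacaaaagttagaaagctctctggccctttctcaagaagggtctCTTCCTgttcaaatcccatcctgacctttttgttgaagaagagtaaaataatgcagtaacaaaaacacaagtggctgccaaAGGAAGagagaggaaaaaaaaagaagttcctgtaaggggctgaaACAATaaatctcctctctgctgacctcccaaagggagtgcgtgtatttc
Robo4: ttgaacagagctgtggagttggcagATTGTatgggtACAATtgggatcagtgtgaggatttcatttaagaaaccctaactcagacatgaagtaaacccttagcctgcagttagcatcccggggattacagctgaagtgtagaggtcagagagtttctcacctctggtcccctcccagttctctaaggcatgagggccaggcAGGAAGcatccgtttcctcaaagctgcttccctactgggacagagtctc
Esm1: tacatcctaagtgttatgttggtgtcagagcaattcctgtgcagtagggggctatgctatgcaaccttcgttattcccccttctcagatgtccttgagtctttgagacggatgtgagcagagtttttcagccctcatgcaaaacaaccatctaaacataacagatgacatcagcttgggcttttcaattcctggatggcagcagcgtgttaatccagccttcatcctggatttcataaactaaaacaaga
Emcn held 2 ETS-type matches and 1 SOX-type match, Robo4 held 1 and 2, and Esm1 held 0 of either. Of the 35 members 17 had a promoter in that table. An ETS-type match was found in 12 of their 21 promoters, where 39.2% of 32851 promoters had one, and a SOX-type match in 5, where 27.7% had one. No motif letters overlapped in the 3 sequences shown, and a match of letters is not a bound site.

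Stab1 (ENSMUSG00000042286, chromosome 14, 31139013 to 31168641) is the sinusoidal scavenger receptor that macrophages make too. It was at 15.2, 22.0, 19.3 and 20.8 CPM in DTRADQ at day 3 and at 7.30, 8.83, 9.62 and 7.98 CPM in controls. All DTRADQ libraries were higher (2.29-fold; log2 change 1.19, SE 0.22, adjusted p = 1.8e-04). The other sinusoidal genes did not pass at day 3. Stab2, its endothelial relative, was at 15.64, 17.01, 15.67 and 16.02 CPM in DTRADQ and at 11.57, 18.82, 15.98 and 19.96 CPM in controls, with a log2 change of −0.04 and a 95% interval of −0.42 to 0.33. That interval leaves out a rise of the size seen for Emcn or Stab1 in the same libraries.

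Flt4, the receptor for VEGF-C on sinusoids and lymphatics, was at 4.42, 4.32, 2.51 and 4.93 CPM in DTRADQ at day 3 and at 4.14, 6.08, 3.25 and 4.66 CPM in controls (log2 change −0.16, 95% interval −0.61 to 0.29). Lyve1, a hyaluronan receptor of lymphatic vessels and some macrophages, was at 8.61, 6.92, 5.62 and 5.81 CPM against 6.45, 5.75, 5.69 and 4.01 CPM (log2 change 0.30, −0.17 to 0.77). Plvap, which forms the diaphragms of endothelial pores, was at 3.60, 4.04, 2.25 and 4.15 CPM against 2.73, 2.52, 2.44 and 3.03 CPM (log2 change 0.39, −0.21 to 1.00). For all 3 the groups overlapped, so the 6 sinusoidal genes ranged from a log2 change of −0.16 to one of 2.14.

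The 3 genes listed as tip cell genes went in opposite directions. Esm1 (ENSMUSG00000042379, chromosome 13, 113209659 to 113218098) encodes the secreted proteoglycan endocan. It was at 0.382, 0.886, 0.463 and 0.342 CPM in DTRADQ at day 3 and at 19.3, 23.1, 18.0 and 28.8 CPM in controls. The groups were separated by more than their spread on each day of DT, and at day 3 the level was 42.7-fold lower (log2 change −5.42, SE 0.33, adjusted p = 1.6e-13). The fall was present after 1 day, at 1.32, 0.657, 0.990 and 0.388 CPM in DTRADQ against 22.8, 19.8, 29.9 and 24.9 CPM in controls (difference −4.81 in log2, SE 0.32, adjusted p = 2.2e-12). Markers of the adiponectin lineage were lower on the same day by similar amounts: all 6 passed, with a median log2 change of −4.03, Igfbp5 at −4.96 and Cxcl12 at −4.22. Neither Angpt2 nor Apln passed at day 1, and both were higher later, so Esm1 moved with the lineage markers and not with the other two of its list. The part of the lineage's own RNA in the fall of Esm1 was not tested. At day 2 the DTRADQ libraries were at 1.01, 2.71, 1.18 and 1.86 CPM and the controls at 26.0, 21.0, 30.0 and 26.9 CPM (log2 change −3.96, SE 0.30, adjusted p = 3.7e-11). Without DT the groups overlapped, at 14.5 to 30.0 CPM in DTRADQ and 13.04 to 27.8 CPM in controls.

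Angpt2 (ENSMUSG00000031465, chromosome 8, 18690263 to 18741562) encodes a ligand that antagonises Tek signalling during vessel remodelling. It was at 20.4, 20.1, 10.8 and 31.8 CPM in DTRADQ at day 3 and at 3.50, 2.32, 2.21 and 2.50 CPM in controls. The lowest DTRADQ library, replicate 3, was still above the highest control (7.89-fold; log2 change 2.98, SE 0.35, adjusted p = 1.9e-07). At day 2 it was at 3.74, 9.96, 18.3 and 16.7 CPM against 3.42, 1.49, 2.84 and 1.90 CPM, with replicate 1 of DTRADQ just above the controls (log2 change 2.32, SE 0.36, adjusted p = 5.4e-05). At day 1 the groups overlapped at 2.44 to 3.78 CPM and 1.26 to 3.06 CPM (log2 change 0.37, 95% interval −0.38 to 1.11).

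Apln (ENSMUSG00000037010, chromosome X, 48025146 to 48034853), the peptide ligand of the receptor Aplnr, is a low gene with 0.123 to 0.839 CPM in controls at day 3. It had at most 21 reads in a control library and passed the filter on low counts only with the DTRADQ libraries counted. Its calls and fold differences therefore describe it and do not test it. The DTRADQ libraries were at 3.60, 4.32, 1.65 and 4.64 CPM, all above the controls at 0.213, 0.839, 0.542 and 0.123 CPM (8.17-fold; log2 change 3.03, SE 0.49, adjusted p = 3.0e-05). At day 2 they were at 0.935, 3.32, 3.46 and 2.54 CPM against 0.753, 0.129, 0.581 and 0.263 CPM (log2 change 2.53, SE 0.53, adjusted p = 0.0029). Without DT the groups of Apln did not overlap either, at 0.518 to 1.11 CPM in DTRADQ and 0 to 0.347 CPM in controls. That log2 change was 1.80 (adjusted p = 0.0709 by edgeR and 0.0364 by DESeq2). The difference between the effects after and without DT did not pass on any day. Aplnr, the receptor, did not pass at day 3 (log2 change 0.05, 95% interval −0.44 to 0.54).

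**Figure D4:**
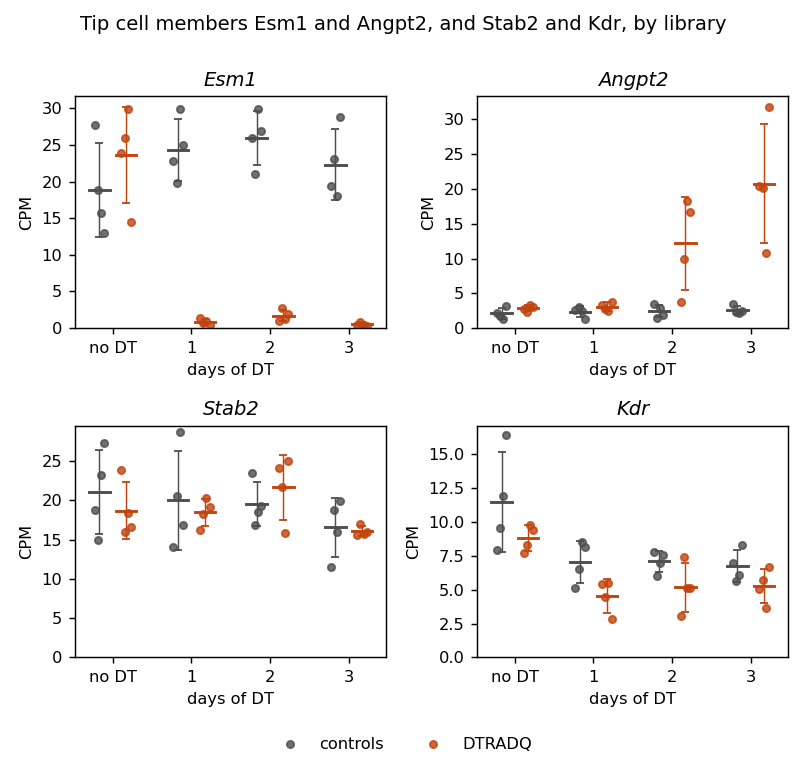
CPM of Esm1, Angpt2, Stab2 and Kdr in each library by days of DT (grey, controls; orange, DTRADQ; bars, mean and SD of 4 mice). Esm1 in DTRADQ is near 0 from day 1 on, Angpt2 rises at days 2 and 3, and the genotypes overlap for Stab2 at day 3.

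Among the remaining pan-endothelial genes, 3 of cell junctions rose at day 3. Esam (ENSMUSG00000001946, chromosome 9, 37528078 to 37538319) encodes a tight junction adhesion molecule that platelets carry too. It was at 35.3, 36.9, 31.5 and 37.9 CPM in DTRADQ and at 17.2, 21.1, 18.9 and 21.1 CPM in controls, with no overlap (log2 change 0.86, SE 0.17, adjusted p = 3.3e-04). Pecam1, an adhesion molecule of endothelium, platelets and leukocytes, was at 82.8 to 110 CPM against 41.0 to 59.4 CPM (log2 change 0.88, SE 0.18, adjusted p = 4.2e-04). Cdh5, which encodes VE-cadherin and is largely limited to endothelium, was at 7.998 to 13.9 CPM against 6.59 to 7.89 CPM (log2 change 0.62, SE 0.22, adjusted p = 0.0410). The call of Cdh5 was kept in 8 of 15 alternatives, and with a skeletal muscle covariate its log2 change was 0.25 (adjusted p = 0.5600). The tight junction gene Cldn5 did not pass (log2 change 0.33, 95% interval −0.39 to 1.04).

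Egfl7, a secreted regulator of vessel tubes, had a log2 change of 0.95 at day 3 (adjusted p = 0.0018), and 7.4% of its exon bases overlap another gene on the same strand. Erg, an ETS factor of endothelium and blood progenitors, had a log2 change of 0.59 (adjusted p = 0.0060) and Vwf, the clotting factor stored by endothelium and megakaryocytes, one of 0.52 (adjusted p = 0.0213). Eng, a TGF-beta family co-receptor, rose by 0.72 (adjusted p = 0.0288), and S1pr1, a sphingosine phosphate receptor that lymphocytes share, by 0.64 (adjusted p = 0.0290). Tie1, an orphan receptor related to Tek, rose by 0.69 (adjusted p = 0.0356), and it is the called member whose groups overlapped.

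The growth factor receptors themselves did not pass at day 3. Kdr, the main VEGF receptor, was at 3.63 to 6.69 CPM in DTRADQ and 5.63 to 8.30 CPM in controls (log2 change −0.35, 95% interval −0.80 to 0.10). Flt1, the decoy-like VEGF receptor, had a log2 change of −0.04 (−0.42 to 0.34) and Tek one of 0.11 (−0.32 to 0.54). The most abundant members per length were also uncalled, Icam2 at 0.07 (−0.37 to 0.50) and Cd93, a C-type lectin receptor of endothelium and myeloid cells, at 0.01 (−0.29 to 0.32). Clec14a, an endothelial lectin related to Cd93, had one of −0.46 (−0.87 to −0.06, adjusted p = 0.1038).

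Calls of 5 members at day 3 were lost in some of the fits that left out a single library. With DTRADQ replicate 2 or 4 left out, the adjusted p of Cdh5 was 0.0844 or 0.1474, and with control replicates 1 to 4 left out singly it was 0.0705, 0.0764, 0.0890 and 0.0641. That of Tie1 was lost without DTRADQ replicate 2 (0.0974), 3 (0.0574) or 4 (0.0697) and without control replicate 1 (0.1082) or 4 (0.0944). That of Eng was lost without DTRADQ replicate 2 (0.0562) or 4 (0.0900) or control replicate 1 (0.1117), and that of Vwf without control replicate 1 (0.0881) or 3 (0.0678). S1pr1 was at 43.5 CPM in DTRADQ replicate 4 and at 20.2 to 23.6 in the others, and without that library its log2 change was 0.32 (adjusted p = 0.2836); its call was lost too without control replicate 2 (0.0721) or 3 (0.0713). Calls of 9 members, Angpt2, Apln, Ecscr, Emcn, Esam, Esm1, Pecam1, Robo4 and Stab1, were kept in all 15 alternatives, which comprise 8 left-out libraries and 7 other settings. Among them Apln passed the filter on low counts only with the DTRADQ libraries counted.

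Some markers of other cell types differed at day 3 as well, and their part in the members' changes was not tested beyond the values given here. Beside the day 3 counts of cell type markers below, 8.8% of all genes tested rose and 14.1% fell. Of the 13 members listed as also expressed in blood cells 9 rose and 0 fell (median log2 change 0.64). Of the 19 tested members not on that list, some of which blood cells may express too, 6 rose and 1 fell (median 0.24). Of 18 megakaryocyte markers 8 rose and 0 fell, with summed levels of 4032 to 4979 CPM in DTRADQ and 2808 to 3599 CPM in controls. Itga2b, the platelet integrin chain, rose by 0.84 (adjusted p = 0.0014), Thbs1 by 1.04 (adjusted p = 1.8e-04) and the granule gene Nbeal2 by 0.77 (adjusted p = 0.0052). These stand beside the rises of Vwf, Pecam1 and Esam, which platelets carry. At day 1 the megakaryocyte sums were already apart, at 3944 to 5385 against 2897 to 3666 CPM, while Vwf, Pecam1 and Esam were not called. The sums overlapped at day 2 (3776 to 6390 against 3029 to 4259 CPM). Without DT they were lower in DTRADQ (3984 to 4798 against 5644 to 7294 CPM).

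Of 15 macrophage markers 1 rose (Siglec1, by 0.96) and 1 fell (Marco, log2 change −4.98, with control levels from 0.171 to 65.0 CPM). Their sum was 1098 to 1313 CPM against 971.2 to 1189 CPM, beside the rise of Stab1. Of 14 stem and progenitor markers 1 rose (Myct1, by 0.89, a gene endothelium expresses too) and 1 fell (Mllt3, −0.70), with sums of 335.6 to 393.7 against 272.2 to 340.5 CPM. For macrophage and progenitor markers the counts were not above the shares of all genes. Of 12 lymphocyte markers the B cell genes Ms4a1 and Cd79a rose, by 0.98 and 0.73, and 0 fell, with sums of 928.1 to 1917 against 615.9 to 1113 CPM. The highest sum was that of DTRADQ replicate 4, the library in which S1pr1 was highest. All markers on these 4 lists were detected in both groups.

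Of 10 tested genes of mural cells and smooth muscle, out of 13 listed, 5 rose and 3 fell. Their sum was 180.4 to 247.0 CPM in DTRADQ and 44.6 to 56.9 CPM in controls, with Tagln at 44.0 to 80.6 against 0.640 to 1.44 CPM and Acta2 at 108.2 to 134.6 against 14.8 to 22.3 CPM. Cspg4 (log2 change 3.88, adjusted p = 1.3e-05), Mcam and Pdgfrb made up the other rises. Cspg4 was at most 0.593 CPM in any control library and passed the filter on low counts only with the DTRADQ libraries counted. Its call therefore describes it and does not test it. Rgs5 (log2 change −0.81, adjusted p = 0.0149), Notch3 (−1.17, 0.0031) and Abcc9 (−0.72, 0.0027) fell, so the called markers of mural cells went both ways. The sum followed Acta2 and Tagln and not the list as a whole. Skeletal muscle markers were higher too: 9 of 12 tested, out of 16 listed, rose and 0 fell, with sums of 135.4 to 761.7 against 50.1 to 77.3 CPM, the highest in DTRADQ replicate 2. With the mean of the muscle markers as a covariate, 9 members were called higher and 1 lower at day 3. The share of all genes called in that fit is not given here. The calls lost were those of Cdh5 (log2 change 0.25, adjusted p = 0.5600), Tie1 (0.31, 0.4947), Eng (0.39, 0.3763), Egfl7 (0.59, 0.1200), Erg (0.50, 0.0780) and Vwf (0.57, 0.0572). Of the 6 adiponectin lineage markers 5 were lower at day 3 and 6 at days 1 and 2, with sums of 117.0 to 148.4 against 625.3 to 759.2 CPM at day 3.

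Further genes of endothelial signalling and structure went both ways at day 3: of 45 tested, out of 50 listed, 13 rose and 6 fell. Of all genes tested 8.8% rose and 14.1% fell, so the number that fell was near that share. Edn1, which encodes the vasoconstrictor endothelin, was at 5.29 to 14.1 CPM in DTRADQ and at 0.0409 to 0.0799 CPM in controls (adjusted p = 2.0e-11). It was at most 0.395 CPM in any control library and 0.205 CPM in DTRADQ without DT. It thus passed the filter on low counts through DTRADQ libraries given DT, and its call describes it and does not test it. Sele, the selectin of activated endothelium, was at 0.977 to 1.44 CPM in DTRADQ and at 3.20 to 3.52 CPM in controls (log2 change −1.44, adjusted p = 3.3e-05). Tal1, a factor of endothelium and erythroid progenitors, fell by 1.86 (adjusted p = 7.1e-06). The same list had 9 higher and 6 lower without DT, where 12.7% and 14.4% of all genes were. It had 2 and 2 at day 1 (0.888% and 3.02% of all genes), and 5 and 3 at day 2 (4.4% and 4.12%).

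At day 2, 6 members rose and 1 fell, where 4.4% of all genes tested rose and 4.12% fell; the median of the members was 0.13 and that of all genes −0.04. The pan-endothelial genes Ecscr, Robo4 and Erg, the sinusoidal gene Emcn and the tip cell genes Angpt2 and Apln made up the rises. Erg was at 11.2 to 15.2 CPM in DTRADQ and at 5.68 to 8.29 CPM in controls (difference 0.91 in log2, SE 0.16, adjusted p = 4.7e-04). Stab1 (log2 change 0.55, adjusted p = 0.1271) and Esam (0.52, adjusted p = 0.0508) did not pass. Without DTRADQ replicate 1, the low library of this group, 10 members were called higher and 1 lower, with Esam (adjusted p = 0.0225), Stab1 (0.0161), Egfl7 (0.0166) and Vwf (0.0475) added. The share of all genes called without that library is not given here. The groups did not overlap for 7 members on the higher side and 2 on the lower, against 10.7% of all genes in each direction. No call of this day was lost in any alternative.

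At day 1, 1 member rose and 1 fell, where 0.888% of all genes rose and 3.02% fell. Esm1 fell as given above. Erg was at 14.0, 17.6, 13.4 and 12.9 CPM in DTRADQ and at 10.9, 8.88, 7.65 and 7.85 CPM in controls, so the groups did not overlap (log2 change 0.71, SE 0.16, adjusted p = 0.0060). Its call was lost without DTRADQ replicate 2 (adjusted p = 0.0502). Emcn and Ecscr did not overlap between groups either but did not pass, with log2 changes of 0.83 (adjusted p = 0.0649) and 0.71 (adjusted p = 0.1293). On the lower side Eng, which rose at day 3, had a log2 change of −0.88 with overlapping groups (adjusted p = 0.0512), and it was called lower in 7 alternatives. Plvap (log2 change −0.86), Flt4 (−0.65), Ptprb (−0.47) and Cldn5 (−1.02) did not overlap on the lower side and did not pass (adjusted p from 0.1298 to 0.2332). In all, 7 members did not overlap on the higher side and 5 on the lower, where 5.08% and 8.87% of all genes did not.

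Before DT, 1 member was higher in DTRADQ and 2 were lower, against 12.7% and 14.4% of all genes tested. Pecam1 was higher by 0.47 (adjusted p = 0.0474), Flt1 was lower by 0.57 on the log2 scale (adjusted p = 0.0365), and Sox18, a SOX factor of endothelium, had a log2 change of −1.30 (adjusted p = 0.0263). The control libraries spread widely, Sox18 from 2.01 to 7.12 CPM and Pecam1 from 29.9 to 69.1 CPM, with the highest Sox18 in replicate 4 and the highest Pecam1 in replicate 1. Without control replicates 3 and 4 the log2 changes were 0.18 for Pecam1, −0.32 for Flt1 and −0.60 for Sox18, and the adjusted p-values were 0.5809, 0.3913 and 0.4503. All 3 calls were also lost without DTRADQ replicate 1 (adjusted p = 0.1115, 0.1131 and 0.0652 for Pecam1, Flt1 and Sox18) or 2 (0.1509, 0.1389 and 0.0664), and without control replicate 3 (0.1859, 0.1080 and 0.0621) or 4 (0.1261, 0.1514 and 0.1782). That of Pecam1 was lost too without DTRADQ replicate 3 (0.0675) or control replicate 2 (0.1255). Leaving out control replicate 1 gave 8 calls. The groups did not overlap for 2 members on the higher side (Aplnr and Apln) and 1 on the lower (Sox18), against 5.64% and 5.42% of all genes.

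The genotype effect after DT was then set against the one without DT, in a test of the difference itself. It passed for 2 members at day 1, 6 at day 2 and 12 at day 3, where 12.3%, 11.1% and 21% of all genes passed in either direction. At day 3 the difference was 2.21 for Emcn, 2.24 for Ecscr, 2.13 for Robo4, 2.51 for Angpt2 and −5.72 for Esm1 on the log2 scale, and these 5 calls were kept in all 39 alternatives run. Without replicates 3 and 4 of the controls without DT the counts were 4, 6 and 10. That setting ended the calls of Cdh5 (1.00 to 0.42, adjusted p = 0.3258), Stab1 (1.05 to 0.80, 0.1008), Eng (1.29 to 0.82, 0.0790) and Tie1 (1.16 to 0.94, 0.0658) at day 3 and of Angpt2 (1.86 to 1.82, 0.0504) at day 2. The count at day 1 was 4 without replicate 1 and 1 without replicate 2 of the controls without DT, and 1 without DTRADQ day 1 replicate 2. Apln, with counts of 0 in replicates 3 and 4 of the controls without DT, did not pass on any day (adjusted p from 0.4241 to 0.7648). Steps between successive DT days, which were chosen for testing after the values had been seen, passed for 0 of 32 members by edgeR and for 0 by DESeq2, where 0% of all genes passed from day 1 to day 2 and 1.36% from day 2 to day 3. By edgeR 4 members had an unadjusted p under 0.05 from day 1 to day 2 and 6 from day 2 to day 3, and by DESeq2 5 and 6. The step of Emcn from day 2 to day 3, for instance, was 0.84 (95% interval 0.16 to 1.52, adjusted p = 0.3077).

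Within DTRADQ, DT against no DT gave 0 higher and 2 lower members at day 1, where 1.26% of all genes rose and 4.22% fell. It gave 6 and 2 at day 2 (4.27% and 4.85% of all genes), and 9 and 3 at day 3 (12.5% and 16.8%). Kdr was at 7.72 to 9.78 CPM without DT, at 2.81 to 5.48 CPM at day 1, at 3.04 to 7.43 CPM at day 2 and at 3.63 to 6.69 CPM at day 3. It was lower by 0.94, 0.77 and 0.73 on the log2 scale (adjusted p = 0.0152, 0.0393 and 0.0175). Controls given the same DT had Kdr changes of −0.67, −0.66 and −0.73 (adjusted p = 0.0290, 0.0351 and 0.0174), and Kdr was not called between the genotypes on any day. In DTRADQ its call was lost without replicate 4 of day 1 (adjusted p = 0.0899) and without replicate 1 (0.0514) or 3 (0.0989) of day 3, and at day 2 in 7 of 39 alternatives (0.0535 to 0.1650). With the muscle covariate the adjusted p at day 1 was 0.1634. At day 3 in DTRADQ, where the lane field differs, Emcn rose by 1.66, Robo4 by 1.87, Stab1 by 1.22 and Angpt2 by 2.88, and Esm1 fell by 5.50 on the log2 scale. Cdh5, Tie1, Eng, Vwf, Erg and S1pr1, which were called higher than in controls at day 3, were not called against DTRADQ without DT. The count at day 1 was 1 without DTRADQ day 1 replicate 4, and the count of 8 at day 2 was 5 without DTRADQ replicate 2 or 4 of the group without DT, and 5 or 4 without replicate 2 or 3 of day 2.

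Within controls, which carry no Cre, 7 members were called on each day of DT, where 33.4%, 28.3% and 30.2% of all genes passed. Kdr, Flt1, Sox18 and Erg were lower and Aplnr higher on all 3 days, Aplnr by 0.76, 0.78 and 0.81. Ecscr was called lower in controls at day 3, where the lane field differs, at 1.75 to 2.80 CPM against 2.57 to 4.44 without DT. That call was lost in 8 of 39 alternatives. Within DTRADQ, Ecscr was called higher at day 3, at 8.26 to 13.1 CPM against 2.70 to 4.58 without DT. Without control replicates 3 and 4 of the group without DT, the counts were 2, 1 and 3, and Kdr, Flt1, Sox18 and Aplnr were called on no day (adjusted p from 0.1006 to 0.5003). Without its replicate 1 they were 12, 12 and 11, and without its replicate 3 they were 2, 3 and 2. The shares of all genes called in these fits are not given here, so these shifts may not be particular to the members. Replicate 4 of that group left out gave 4 at day 3, replicate 1 of day 1 gave 4 at day 1, replicates 3 and 4 of day 2 gave 4 each at day 2, and replicates 1 and 2 of day 3 gave 4 and 1 at day 3. Erg lost its call in 26, 1 and 14 of 39 alternatives on the 3 days. A fit of only the groups compared called 0 members on each day, with 7, 7 and 6 at an unadjusted p under 0.05, and DESeq2 called 9, 8 and 8. The comparisons within a genotype share their libraries without DT, so the days are not independent of each other.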

How the data were processed

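Each deposited table holds, per the file headers, a read count, a CPM value and an RPKM value for every gene. The build GRCm38 and the tools STAR 2.0.4b, featureCounts 1.45 and Subread are named in the submitters' processing notes, with bcl2fastq. How strand and multi-mapping reads were treated, and with which annotation, is not given in the sources used here. The deposited CPM and RPKM values followed from the counts (largest difference 4.4e-10 CPM, relative difference 3.9e-14 for RPKM) and were not used further.

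Tests used R 4.3.3 and edgeR 4.0.16: filterByExpr (minimum count 10) kept 14527 genes, TMM scaled the libraries, and a quasi-likelihood model was fitted with 1 mean for each of the 8 groups. Two-sided p-values were adjusted by Benjamini-Hochberg over all genes tested, with a threshold of 0.05. The SE is the size of the log2 change over the square root of F, and 95% intervals are 1.96 SE. Library copies were looked for, and the smallest chi-square per gene between libraries of a group was 9.689. By exon overlap in a mouse annotation of GRCm38, Rasip1 shares 20.4% of its exon bases with Izumo1, and Sox17 shares 16.8% and Nos3 25.2% with a gene on the opposite strand, so these counts are uncertain.

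The members and lists were chosen with earlier results of these data known. Values of every library are given for the 8 called members with the smallest p at day 3 and for sinusoidal and tip cell genes, and up to 3 genes of each other list are named by p. Rgs5, Notch3, Abcc9, Mcam and Pdgfrb were named after their values were seen. Alternatives were DESeq2 1.42.0, its size factors within edgeR, no filter, a fit of only the groups compared, a muscle covariate, a replicate block, and libraries left out. Member counts in the alternatives are given without the share of all genes called in the same fit. Intervals cover the spread between mice and not the lane field.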

Additional observations from a re-analysis of the deposited data

Results flagged for a closer look

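In 11 of 280 groups of 4 libraries tested, 1 library lay far from the other 3 by Dixon's criterion, and chance alone gives about 1 in 20 such groups. The level was far above the rest for Pecam1 in control replicate 1 without DT (69.1 CPM), Vwf in control replicate 1 at day 2 (103.2 CPM), Sox7 in control replicate 1 without DT (0.0694 CPM), Sox17 in DTRADQ replicate 1 at day 1 (0.294 CPM), Erg in DTRADQ replicate 3 without DT (13.3 CPM), and Egfl7 in control replicate 2 at day 2 (12.4 CPM). It was also far above for Clec14a in control replicate 4 at day 3 (5.40 CPM), Nos3 in DTRADQ replicate 4 at day 1 (0.291 CPM) and S1pr1 in DTRADQ replicate 4 at day 3 (43.5 CPM). It was far below the rest for Sox7 in control replicate 2 at day 3 (0 CPM) and Cd93 in control replicate 3 at day 1 (65.2 CPM). The gaps of Sox7, Sox17 and Nos3 on the higher side are of 1 to 3 reads: 1 read against 0 in each of the others for Sox7, 4 against 1 for Sox17 and 3 against 2 for Nos3.

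The genotype effect after DT differed from that without DT for 12 members on at least 1 day, by edgeR's quasi-likelihood test of the difference, which is given on the log2 scale. At day 1 it was −5.11 for Esm1 (adjusted p = 2.3e-10) and 0.80 for Erg (adjusted p = 0.0194). At day 2 it was −4.26 for Esm1 (adjusted p = 4.2e-09), 1.86 for Angpt2 (0.0251), 1.63 for Robo4 (0.0043), 1.47 for Ecscr (0.0082), 1.37 for Emcn (0.0131) and 0.99 for Erg (0.0052). At day 3, where the lane field differs from the libraries without DT, it was −5.72 for Esm1 (adjusted p = 2.2e-11), 2.51 for Angpt2 (0.0012), 2.24 for Ecscr (5.4e-05), 2.21 for Emcn (6.7e-05) and 2.13 for Robo4 (1.1e-04). The rest at day 3 were 1.30 for Egfl7 (0.0042), 1.29 for Eng (0.0094), 1.16 for Tie1 (0.0180), 1.05 for Stab1 (0.0206), 1.00 for Cdh5 (0.0261), 0.73 for Esam (0.0293) and 0.68 for Erg (0.0307). Over 39 alternatives, 6 of these calls at day 3 were lost in at least 1: Erg in 10 (adjusted p from 0.0528 to 0.1174), Esam in 9 (0.0501 to 0.0823), Cdh5 in 8 (0.0521 to 0.3258), Stab1 in 2 (0.0653 and 0.1008), Tie1 in 2 (0.0658 and 0.0956) and Eng in 1 (0.0790). At day 2 Angpt2 was lost in 6 (0.0501 to 0.0856) and Emcn in 1 (0.0531), and at day 1 Erg in 4 (0.0705 to 0.0911).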

How the results depend on the processing

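DTRADQ against controls called 3, 2, 7 and 16 members without DT and at days 1, 2 and 3. With only the groups compared in the fit the count was 0 without DT (2 at an unadjusted p under 0.05, and 4 called by DESeq2) and 6 at day 1. At day 1 it was 5 with DESeq2, 5 without replicates 3 and 4 of the controls without DT, and 4 with the replicate block; at day 3 it was 10 with the muscle covariate. With libraries left out singly, these counts ran from 0 to 8, 1 to 3, 7 to 11 and 12 to 16. The difference between genotype effects at day 1 (2 members) fell to 1 with no filter and 1 with only the groups compared, and was 4 without control replicates 3 and 4. With single libraries left out it ran from 1 to 4 at day 1, 5 to 9 at day 2 and 9 to 13 at day 3.

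Within DTRADQ the count at day 1 (2) was 1 with the muscle covariate, 5 with only the groups compared and 4 without control replicates 3 and 4, which also gave 13 at day 2 (8). With libraries left out singly, counts ran from 1 to 2, 4 to 9 and 10 to 14. Within controls (7 on each day) the fit of only the groups compared gave 0, 0 and 0, and leaving out replicates 3 and 4 gave 2, 1 and 3. The muscle covariate gave 3 at day 1 and no filter gave 4 at day 3, and single libraries left out gave 2 to 12, 3 to 12 and 1 to 11. No member called in DTRADQ against controls changed direction in the alternatives. Uncalled members and the other comparisons were not checked for this.

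The labels do not say that a replicate number marks a shared litter or day. Deviations of same-numbered libraries had a median correlation of 0.06 (−0.16 to 0.36) and those of differently numbered ones −0.01 (−0.44 to 0.38). Of 32 libraries 21 correlated best with their own number, more than an even spread over the 4 numbers would give, which is a hint of pairing from the data and not from the design. The replicate block gave 3, 4, 8 and 16 calls for DTRADQ against controls. DESeq2 size factors in place of TMM gave 2, 2, 8 and 16. Causes of these shifts were not tested, and without the shares of all genes in the same fits they may not be particular to the members. Depth limits Sox7, Sox17, Nos3 and Apln, which had under 1 CPM in controls.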
